A study of Mus musculus with 8 samples.

Results

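The genes described here make cholesterol and control the transcription factor SREBP2. They were a list of 30 genes matched by symbol to the deposited expression table, which held 10639 genes, and all 30 were found and tested. The cells were RAW264.7, a wild-type mouse macrophage-like line transformed by Abelson leukaemia virus, so all groups came from 1 line. One group was left untreated (UT), one received lipopolysaccharide (LPS) at 50 ng/mL for 12 h (L), one received antibodies against the fatty acid and oxidized lipoprotein receptor CD36 at a dilution of 1 in 100 for 12 h (Ab), and one received both for 12 h (LAb). The labels of the last group state no doses of their own. No isotype antibody group was analysed here, so binding of CD36 and exposure to any antibody cannot be told apart. Each group had 2 RNA-seq libraries, and the labels do not tell whether these came from separate cultures. The p-values therefore reflect variation between libraries of a group, part or all of which may be technical.

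Cells build cholesterol from acetyl-CoA. Acetyl units are joined and reduced to mevalonate, mevalonate is turned into isoprenoid units, these are joined to squalene, squalene is closed to lanosterol, and a series of oxidations and reductions turns lanosterol into cholesterol. SREBP2 (the product of Srebf2) sits in the endoplasmic reticulum membrane bound to its escort SCAP. When sterols are low the pair moves to the Golgi, where the proteases encoded by Mbtps1 and Mbtps2 release the active factor, which switches on nearly every enzyme of the route. When sterols are high the INSIG proteins hold SCAP back. In macrophages this supply is balanced against cholesterol taken up with lipoproteins, which leaves the lysosome through NPC2 and NPC1 and is stored as esters made by SOAT1.

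Libraries held 47900000 to 71700000 reads, recovered from the steps of the deposited values, and the members had between 250 and 41219 reads in a library, so counting error was small for all of them. All 8 macrophage markers examined were in the table. Their summed level, in fragments per kilobase of transcript scaled to the reads of the library (FPKM), ran from 3625 to 4216 in untreated cells, 4229 to 4299 with LPS, 4774 to 5396 with the antibody and 3956 to 4489 with both. Of 5 granulocyte, 5 B cell and 5 T and NK cell markers, 1, 2 and 1 were in the table, and 0 of 5 fibroblast, 4 epithelial and 4 endothelial markers. The antibody replicates stood farthest apart. The SD of their log2 difference over the 30 members was 0.35, against 0.18 in untreated cells, 0.09 with LPS and 0.17 with both. Over all genes tested the SD was 0.45 with the antibody, 0.22 in untreated cells, 0.14 with LPS and 0.19 with both. Antibody replicate 1 also had 15.7% of its summed FPKM in mitochondrial genes, against 3.28% to 6.62% in the other 7 libraries.

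Promoter sequences are shown first, because SREBP2 is known to act at the promoters of these genes together with NF-Y, which binds CCAAT, and with Sp1, which binds GGGCGG. RefSeq start sites (GRCm38.p6) were matched for 25 of the 30 members, and the 250 bases before each start were searched on both strands. CCAAT was present in 21 of the 25 members (84%), in 33.9% of all 32851 promoters and in 40.9% of the 8317 genes of the expression table that had a promoter. GGGCGG was present in 21 of the 25 (84%), against 32.7% of all promoters and 65.5% of the table's genes. CACNCCAC, a core of sterol regulatory elements, was present in Acat2, Hmgcs1 and Insig1, which is 12% of the members against 5.29% and 6.47%. Its longer form TCACNCCAC, which overlaps it, was present in Hmgcs1 alone. Dhcr7, Insig2, Pmvk and Scap have several start sites and so more places for a match. A match describes letters in this window and is not evidence of binding.

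The following 5 stretches lie before the start and outside annotated exons, on the strand of the gene and 5′ to 3′. They were chosen because they cover the first steps of the route, the control gene Srebf2 and Npc2, the larger of the 2 rises with LPS, and capitals mark CCAAT or CACNCCAC on either strand. The Hmgcs1 stretch (chr13:119690151-119690350, plus strand) holds 2 CCAAT boxes and the sterol element core between them. The Acat2 stretch (chr17:12960748-12960947, minus strand) holds 2 cores and no CCAAT. The Mvk stretch (chr5:114444069-114444268, plus strand) holds 5 CCAAT boxes and no core, the highest number of CCAAT boxes among the members. The Srebf2 stretch (chr15:82147019-82147180, plus strand) and the Npc2 stretch (chr12:84773153-84773250, minus strand) hold 1 CCAAT box each.
Hmgcs1: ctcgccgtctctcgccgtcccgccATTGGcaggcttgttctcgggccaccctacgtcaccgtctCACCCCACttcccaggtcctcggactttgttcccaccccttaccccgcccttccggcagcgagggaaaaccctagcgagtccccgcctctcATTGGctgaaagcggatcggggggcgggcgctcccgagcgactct
Acat2: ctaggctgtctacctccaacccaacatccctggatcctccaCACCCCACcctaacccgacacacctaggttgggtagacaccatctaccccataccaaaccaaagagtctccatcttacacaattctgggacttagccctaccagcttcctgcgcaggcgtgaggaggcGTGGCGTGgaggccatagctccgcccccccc
Mvk: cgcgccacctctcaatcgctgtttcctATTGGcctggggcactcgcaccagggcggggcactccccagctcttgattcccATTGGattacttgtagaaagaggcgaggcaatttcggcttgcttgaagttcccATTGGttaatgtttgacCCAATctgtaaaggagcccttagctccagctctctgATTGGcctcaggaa
Srebf2: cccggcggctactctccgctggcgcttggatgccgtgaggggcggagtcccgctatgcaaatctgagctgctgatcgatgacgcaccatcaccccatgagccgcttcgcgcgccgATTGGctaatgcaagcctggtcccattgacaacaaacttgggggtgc
Npc2: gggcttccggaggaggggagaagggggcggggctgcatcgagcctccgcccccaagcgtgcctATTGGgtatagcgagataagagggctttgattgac

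**Figure D1:**
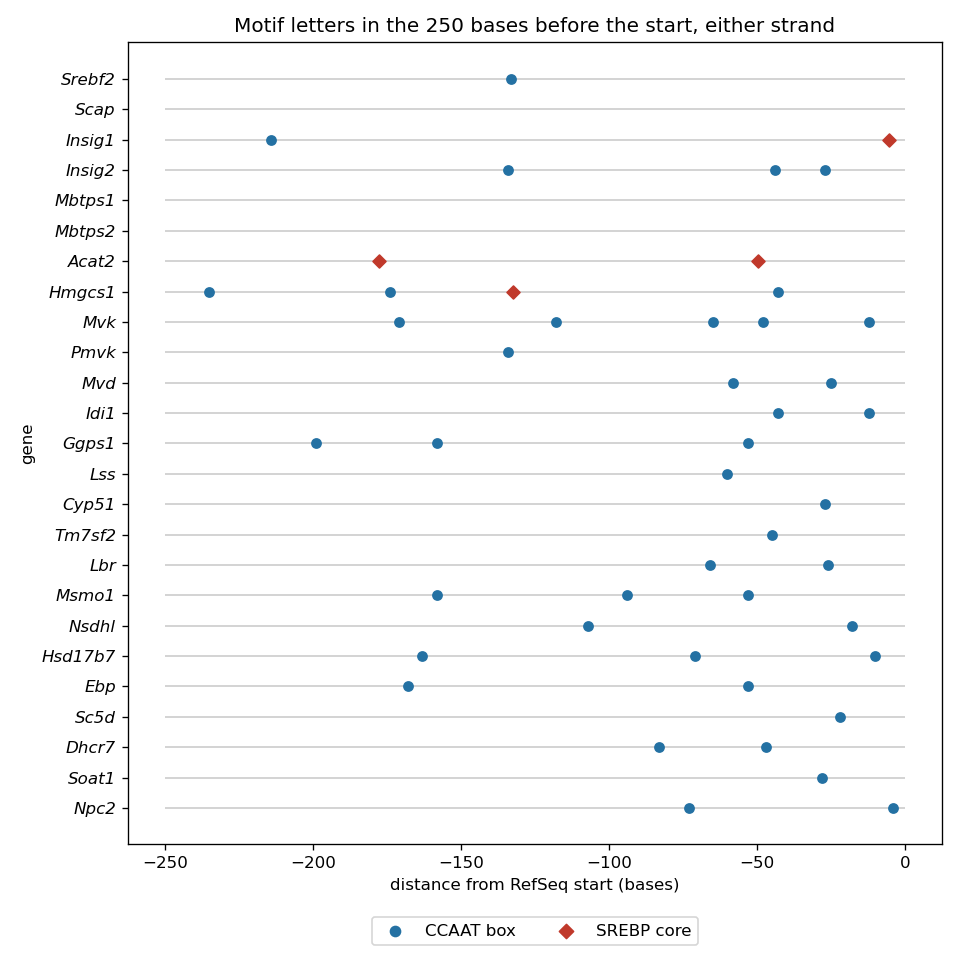
Positions of CCAAT boxes (circles) and of the sterol element core CACNCCAC (diamonds) in the 250 bases before the start, one row for each of the 25 members with a RefSeq promoter, with distance from the start in bases on the horizontal axis and several start sites of a gene laid over each other. CCAAT boxes stand in 21 rows, and cores stand in the rows of Acat2, Hmgcs1 and Insig1.

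LPS lowered most of the route. Against untreated cells, 22 of the 30 members were called lower and 2 higher (limma, Benjamini-Hochberg adjusted p under 0.05 over all 10289 genes tested). Over all genes tested, 37.5% were called lower and 17% higher (54.6% in either direction), and the median log2 difference was -0.74 for the members and -0.19 for all genes. Of the 20 enzymes from Acat2 to Dhcr7, 16 fell and 1, Ggps1, rose. The FPKM summed over these 20 enzymes was 658 and 623 in the untreated libraries, 347 and 360 with LPS, 540 and 641 with the antibody and 335 and 332 with both. The untreated and antibody libraries overlapped in this sum and lay above all 4 libraries that received LPS. As a share of each library's summed FPKM, the enzymes made up 0.224% and 0.222% in untreated cells and 0.168% and 0.193% with the antibody. They made up 0.104% and 0.111% with LPS and 0.0949% and 0.0966% with both. In this share the antibody libraries lay below the untreated ones and above all 4 with LPS. In these bulk libraries, fewer cells with a transcript and less transcript per cell cannot be told apart. Scaling the libraries by median-ratio size factors moved the median of all genes from -0.19 to 0.00, and the members then had 17 lower and 3 higher calls. Over all genes, 26.5% were then called lower and 25.8% higher. Relative to the median of all genes, the members' median was -0.55 on the deposited scale and -0.52 with size factors.

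**Figure D2:**
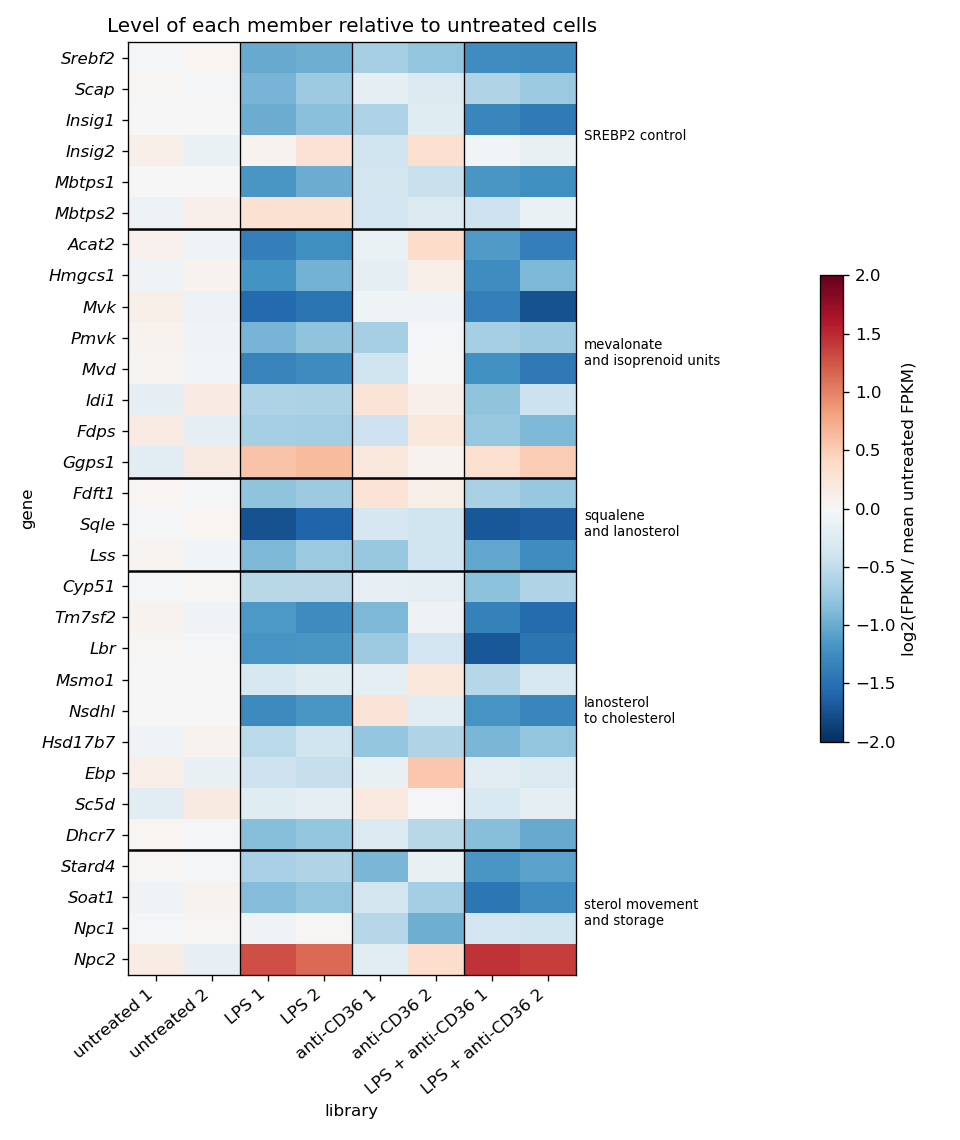
Log2 ratio of each member's FPKM to its mean in the 2 untreated libraries, with members as rows ordered by step, the 8 libraries as columns, and colour running from blue (lower) to red (higher). Most rows are blue in the 4 libraries that received LPS, and the rows of Ggps1 and Npc2 are red there.

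Among the genes of SREBP2 control, Srebf2, Scap, Insig1 and Mbtps1 fell with LPS, and Insig2 and Mbtps2 did not pass the test. Srebf2 (chr15:82147181-82205379, mm10) had 76.2 and 80.02 FPKM in untreated cells, 38.9 and 39.6 with LPS, 49.3 and 45.1 with the antibody and 33.1 and 32.3 with both. Its 4 groups did not overlap, and their order from high to low was untreated, antibody, LPS and both. The log2 difference of LPS to untreated cells was -0.98 ± 0.11 (SE; limma adjusted p = 0.00025), that of the antibody -0.72 ± 0.11 (adjusted p = 0.015) and that of both to untreated cells -1.23 ± 0.11 (adjusted p = 7.3e-05). Scap, the escort, had 8.70 and 8.39 FPKM in untreated cells, 4.50 and 5.19 with LPS, 7.51 and 6.99 with the antibody and 5.65 and 5.13 with both. The LPS libraries and those with both overlapped for Scap, and its LPS difference was -0.71 ± 0.11 (log2, limma adjusted p = 0.0013).

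The retention proteins parted from each other. Insig1, itself a known SREBP target, had 36.7 and 37.3 FPKM in untreated cells, 18.5 and 20.7 with LPS, 24.0 and 31.2 with the antibody and 14.9 and 13.9 with both. Its groups followed the order seen for Srebf2 and did not overlap, and the LPS difference was -0.88 ± 0.14 (log2, limma adjusted p = 0.0015). Insig2, which makes a closely related protein, had 8.99 and 7.59 FPKM in untreated cells, 8.67 and 10.1 with LPS, 6.27 and 10.4 with the antibody and 7.95 and 7.51 with both. These ranges overlapped and LPS gave 0.16 ± 0.21 (adjusted p = 0.52). The ratio of Insig1 to Insig2 FPKM was 4.50 ± 0.59 in untreated cells, 2.09 ± 0.06 with LPS, 3.42 ± 0.58 with the antibody and 1.86 ± 0.02 with both (mean ± SD, n = 2). 

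The protease genes also parted. Mbtps1, which encodes the protease that cuts first, had 15.5 and 15.8 FPKM in untreated cells, 6.95 and 7.84 with LPS, 12.1 and 11.4 with the antibody and 6.95 and 6.67 with both. Its LPS difference was -0.99 ± 0.10 (log2, limma adjusted p = 0.00021). Mbtps2, which encodes the protease that completes the release, had 6.69 and 7.75 FPKM in untreated cells, 8.95 and 8.93 with LPS, 5.51 and 5.92 with the antibody and 5.41 and 6.57 with both. Its LPS libraries were the highest of the 4 groups, with 0.28 ± 0.12 against untreated cells (adjusted p = 0.091), and this difference passed the threshold with size factors (0.49, adjusted p = 0.010) and quantile normalization (0.49, adjusted p = 0.0083). The ratio of Mbtps1 to Mbtps2 FPKM was 2.17 ± 0.20 in untreated cells, 0.83 ± 0.07 with LPS, 2.06 ± 0.18 with the antibody and 1.15 ± 0.19 with both. Of the exon bases of Mbtps2, 28.4% are shared with Yy2 on the same strand, so reads of these genes may not be told apart.

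All 8 genes of the mevalonate and isoprenoid step passed the test with LPS, 7 lower and Ggps1 higher. Mvk (chr5:114444269-114460591), the kinase that first phosphorylates mevalonate, had 18.8 and 16.0 FPKM in untreated cells, 5.96 and 6.36 with LPS, 16.4 and 16.6 with the antibody and 6.73 and 5.22 with both. Its difference was -1.36 ± 0.14 with LPS (limma adjusted p = 0.00018), and the libraries fell into those with and those without LPS. Mvd, the decarboxylase that makes the first isoprenoid unit, had 65.4 and 60.1 FPKM in untreated cells, 25.0 and 26.2 with LPS, 47.4 and 62.3 with the antibody and 27.2 and 23.2 with both. The LPS difference of Mvd was -1.26 ± 0.15 (adjusted p = 0.00044), and the antibody libraries overlapped the untreated ones.

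The enzymes that open the route behaved alike in this comparison. Acat2 (chr17:12942890-12960747), which joins acetyl-CoA units, had 36.8 and 32.8 FPKM in untreated cells, 13.4 and 14.9 with LPS, 31.8 and 44.7 with the antibody and 15.9 and 13.5 with both. Hmgcs1 (chr13:119690379-119708260), which adds the next acetyl unit, had 29.9 and 32.8 FPKM in untreated cells, 13.8 and 16.4 with LPS, 27.8 and 34.2 with the antibody and 13.3 and 16.8 with both. Their log2 differences with LPS were -1.24 ± 0.17 (limma adjusted p = 0.00084) and -1.01 ± 0.16 (adjusted p = 0.0015). For both genes the untreated and antibody ranges overlapped, as did the ranges of LPS and of both agents.

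Pmvk, Idi1 and Fdps, which phosphorylate mevalonate again, isomerize the isoprenoid unit and join units to farnesyl diphosphate, fell, with log2 differences of -0.83 ± 0.19 (limma adjusted p = 0.0075), -0.58 ± 0.16 (adjusted p = 0.018) and -0.66 ± 0.22 (adjusted p = 0.033). The call of Pmvk was lost without LPS replicate 1 (adjusted p = 0.059). Idi1 was not called without untreated replicate 2 (0.12), LPS replicate 1 (0.083) or LPS replicate 2 (0.085). Fdps was not called without untreated replicate 1 (0.18), LPS replicate 1 (0.12), LPS replicate 2 (0.13) or either library of both agents (0.057 each). Both calls were also lost with size factors (-0.35 for Idi1, 0.11, and -0.43 for Fdps, 0.11) and with the trend on length removed (-0.35, 0.12, and -0.39, 0.13), and that of Idi1 with quantile normalization (-0.43, 0.062). Of the exon bases of Fdps, 26.7% are shared with Gm43738 on the same strand.

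Ggps1, which draws farnesyl diphosphate off to the geranylgeranyl groups of prenylated proteins, was the member of this step that rose. It had 4.24 and 5.58 FPKM in untreated cells, 7.27 and 7.61 with LPS, 5.67 and 5.14 with the antibody and 6.12 and 6.95 with both. LPS gave 0.52 ± 0.14 (limma adjusted p = 0.014), and the LPS libraries lay above all others. Untreated replicate 1 (adjusted p = 0.095), LPS replicate 1 (0.061) and LPS replicate 2 (0.078) were each needed for this call. Fdft1, which commits farnesyl diphosphate to sterols at the same branch point, moved the opposite way, and the ratio of Fdft1 to Ggps1 FPKM was 5.89 ± 1.39 in untreated cells, 2.23 ± 0.02 with LPS, 5.99 ± 0.06 with the antibody and 2.67 ± 0.38 with both.

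All 3 genes of squalene and lanosterol fell with LPS. Sqle (chr15:59315077-59331192), the squalene epoxidase and a rate-limiting enzyme of the route, had 46.3 and 49.2 FPKM in untreated cells, 14.2 and 15.8 with LPS, 37.7 and 36.1 with the antibody and 14.8 and 15.2 with both. Its mean with LPS was 31.4% of the untreated mean, the lowest share among the 30 members, with a log2 difference of -1.61 ± 0.10 (limma adjusted p = 2.7e-05). Its libraries with both agents lay inside the range of the LPS libraries. Fdft1, the squalene synthase, had 29.1 and 27.4 FPKM in untreated cells, 16.1 and 17.1 with LPS, 34.2 and 30.6 with the antibody and 18.0 and 16.6 with both. The LPS difference of Fdft1 was -0.73 ± 0.11 (adjusted p = 0.0011), and 18.3% of its exon bases lie opposite Ctsb on the other strand.

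Lss, which closes squalene epoxide to lanosterol, had 17.5 and 16.3 FPKM in untreated cells, 9.09 and 10.1 with LPS, 9.96 and 12.8 with the antibody and 8.26 and 7.16 with both. The LPS difference was -0.76 ± 0.14 (limma adjusted p = 0.0031). Unlike those of Fdft1, its antibody libraries lay below the untreated ones and overlapped the LPS libraries.

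**Figure D3:**
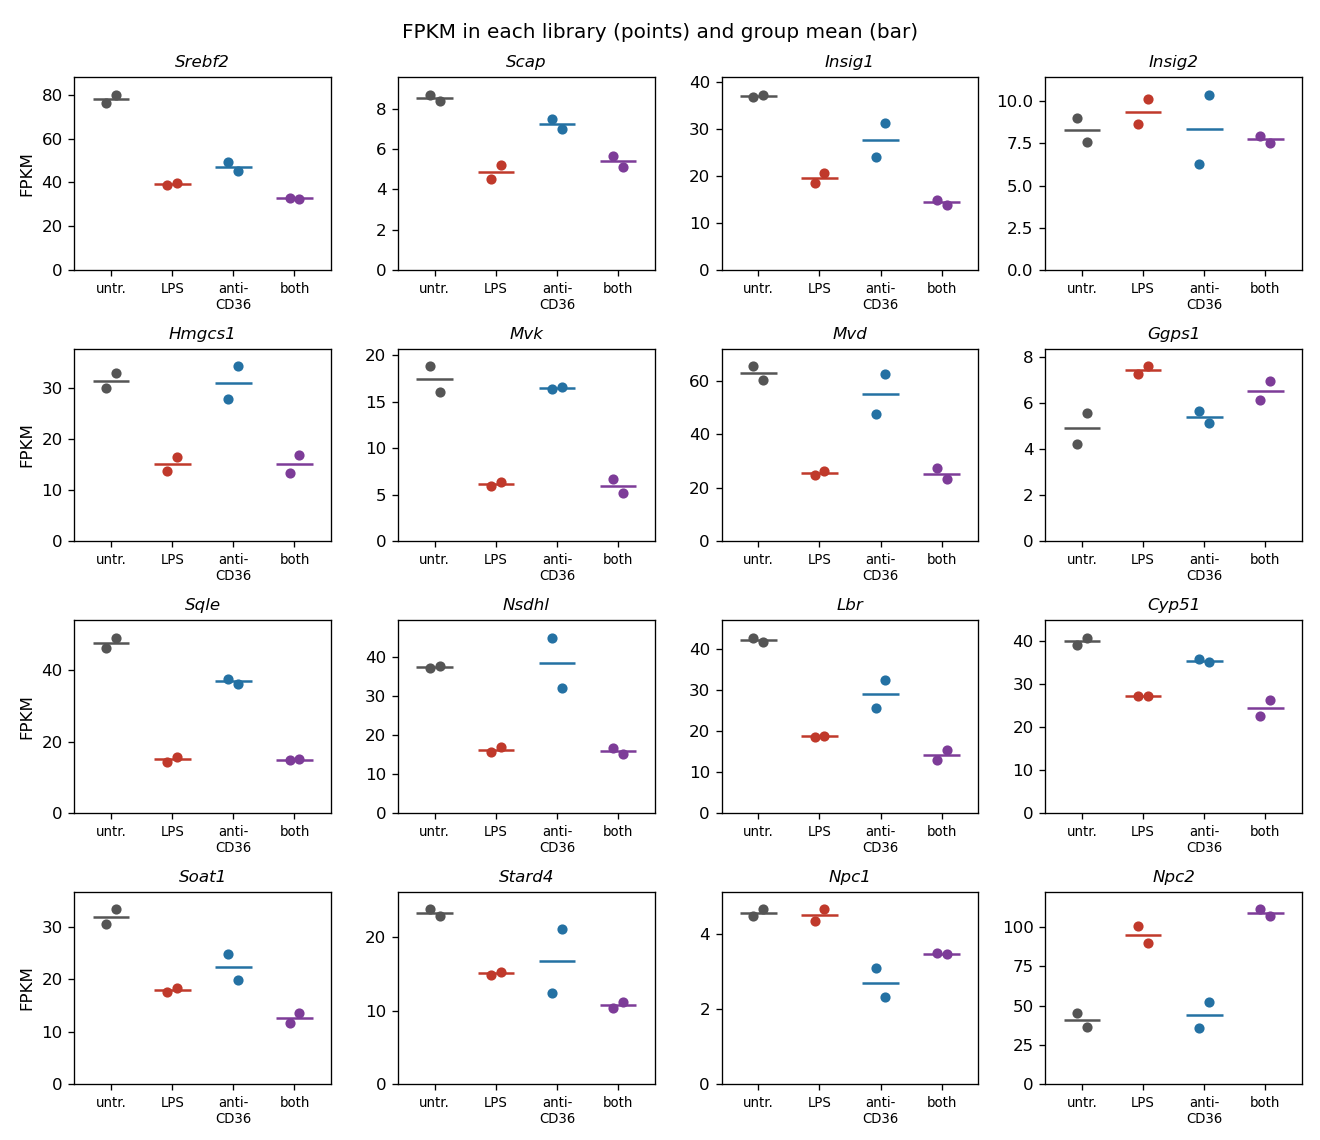
FPKM of selected members on a linear axis that starts at 0, with groups along the horizontal axis, points for single libraries and a bar for the mean of the 2. The libraries with and without LPS stand apart for Mvk and Sqle, the 4 groups of Srebf2 are separate, and Npc2 is high in the 4 libraries with LPS.

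In the step from lanosterol to cholesterol, 6 of 9 genes fell with LPS, and Msmo1, Ebp and Sc5d did not pass the test. Lbr, a sterol C14 reductase that is also the lamin B receptor of the nuclear envelope, had 42.8 and 41.8 FPKM in untreated cells, 18.6 and 18.8 with LPS, 25.5 and 32.4 with the antibody and 13.0 and 15.3 with both. Its LPS difference was -1.13 ± 0.14 (limma adjusted p = 0.00045), and the 4 groups did not overlap. Tm7sf2, which encodes the other C14 reductase, had the lowest mean of all members in each group, with 3.24 and 2.95 FPKM in untreated cells, 1.40 and 1.29 with LPS, 1.66 and 2.88 with the antibody and 1.21 and 1.06 with both. LPS gave a log2 difference of -0.80 ± 0.17 (adjusted p = 0.0055), which the added 1 makes smaller than the ratio of its FPKM values, and 12.1% of its exon bases are shared with Vps51 on the same strand. The ratio of Lbr to Tm7sf2 FPKM was 13.7 ± 0.71 in untreated cells and 13.9 ± 0.91 with LPS.

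Nsdhl, which removes a carboxyl group at C4, had 37.3 and 37.7 FPKM in untreated cells, 15.6 and 16.8 with LPS, 44.9 and 32.0 with the antibody and 16.6 and 15.2 with both. The antibody libraries lay on either side of the untreated ones, and LPS gave -1.16 ± 0.16 (limma adjusted p = 0.00077). Dhcr7, which makes cholesterol from 7-dehydrocholesterol, had 19.1 and 18.1 FPKM in untreated cells, 10.4 and 10.9 with LPS, 15.3 and 12.7 with the antibody and 10.4 and 9.26 with both. Its LPS difference was -0.76 ± 0.12 (adjusted p = 0.0015).

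Cyp51, the lanosterol demethylase, and Hsd17b7, a 3-ketosterol reductase, fell, with log2 differences of -0.54 ± 0.11 (limma adjusted p = 0.0050) and -0.43 ± 0.11 (adjusted p = 0.014). Hsd17b7 was not called without untreated replicate 2 (adjusted p = 0.097) or LPS replicate 1 (0.11), and both calls were lost with size factors (-0.30 and 0.059 for Cyp51, -0.21 and 0.12 for Hsd17b7) and with the length trend removed (-0.26 and 0.077, -0.13 and 0.27). Quantile normalization also ended that of Hsd17b7 (-0.24, 0.080). The C4 methyl oxidase Msmo1, the isomerase Ebp and the C5 desaturase Sc5d had differences of -0.27 ± 0.15 (adjusted p = 0.17), -0.41 ± 0.21 (0.13) and -0.18 ± 0.15 (0.32). Without either antibody library, Msmo1 (0.037) and Ebp (0.0085) passed the threshold.

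Among genes of sterol movement and storage, Soat1 and Stard4 fell with LPS, Npc2 rose and Npc1 did not pass the test. Npc2 (chr12:84754562-84773152), the soluble protein that hands lysosomal cholesterol to NPC1, had 45.3 and 36.6 FPKM in untreated cells, 100.3 and 89.6 with LPS, 35.5 and 52.5 with the antibody and 111 and 107 with both. Its LPS difference was 1.20 ± 0.20 (limma adjusted p = 0.0017), and all 4 libraries with LPS lay above all 4 without. Npc1, the membrane partner, had 4.47 and 4.66 FPKM in untreated cells, 4.34 and 4.66 with LPS, 3.09 and 2.32 with the antibody and 3.49 and 3.46 with both. Its LPS difference was -0.02 ± 0.12 (adjusted p = 0.91), and the ratio of Npc2 to Npc1 FPKM was 8.99 ± 1.62 in untreated cells, 21.2 ± 2.76 with LPS, 17.1 ± 7.86 with the antibody and 31.3 ± 0.66 with both.

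Soat1, which esterifies cholesterol for storage, had 30.5 and 33.3 FPKM in untreated cells, 17.5 and 18.4 with LPS, 24.8 and 19.9 with the antibody and 11.7 and 13.5 with both. The 4 groups did not overlap, and its LPS difference was -0.79 ± 0.14 (limma adjusted p = 0.0021). Stard4, a sterol carrier of the cytosol, had 23.8 and 22.9 FPKM in untreated cells, 14.9 and 15.3 with LPS, 12.4 and 21.1 with the antibody and 10.4 and 11.2 with both. Its LPS difference was -0.59 ± 0.21 (adjusted p = 0.045). Leaving out either untreated library (adjusted p = 0.15 for replicate 1 and 0.12 for replicate 2), either LPS library (0.16 and 0.14) or either library of both agents (0.076 each) ended that call. So did quantile normalization (-0.45, adjusted p = 0.087), size factors (-0.37, 0.14) and removal of the length trend (-0.30, 0.25).

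In cells that received the antibody, LPS lowered most of the members that it lowered without the antibody. The group with both agents had 20 members lower and 1, Npc2, higher than the group with the antibody alone, where 31.7% of all genes were called lower and 15.4% higher (47.1% in either direction). The split was 14 lower and 3 higher with size factors and 16 lower and 3 higher with quantile normalization. Over all genes, 22.8% were called lower and 23% higher with size factors, and 24.5% and 20.1% with quantile normalization. Of the 22 members called lower by LPS alone, 19 were also called lower here. Hsd17b7, Pmvk and Stard4 were not, and Msmo1 was called lower here but not by LPS alone. The same overlap was not counted over all genes, so it is not read as a trait of the members. These comparisons share no library, though they share the fit's estimate of the spread. The log2 difference was -1.34 ± 0.14 for Mvk (limma adjusted p = 0.00022), -1.24 ± 0.10 for Sqle (9.2e-05), -1.31 ± 0.17 for Acat2 (0.00079), -1.21 ± 0.16 for Nsdhl (0.00079) and 1.31 ± 0.20 for Npc2 (0.0014). That of Srebf2 was -0.51 ± 0.11 (0.0058), and this call was lost with size factors (0.055). With single libraries left out, the difference ran from -1.49 to -1.18 for Mvk, -0.58 to -0.45 for Srebf2 and 1.04 to 1.59 for Npc2. Fewer were called without either library of both agents, among the members and over all genes. A fit on only these groups called 13 members and 31.7% of all genes.

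**Figure D4:**
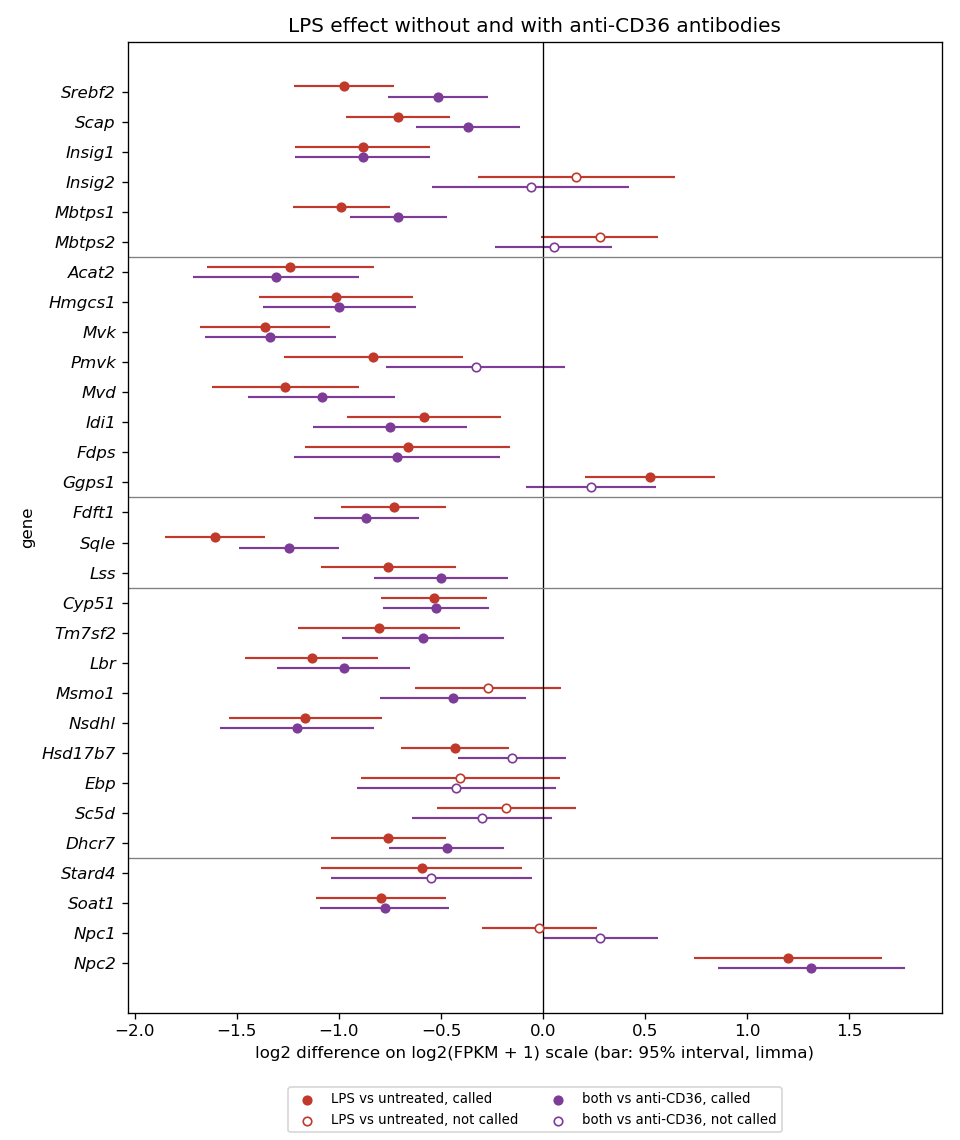
Log2 difference of each member with its 95% limma interval for LPS against untreated cells and for both agents against the antibody alone, on the log2(FPKM + 1) scale, with filled points for called members. Most members lie left of 0 in both comparisons, with Sqle farthest for LPS alone and Mvk farthest in cells with the antibody, and Npc2 lies right of 0 in both.

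The difference between these LPS effects was tested as an interaction, the LPS effect with the antibody minus that without it. No member passed the adjusted threshold in limma, 2 of 30 had an unadjusted p under 0.05 against 1396 of 10289 genes, and 1 gene of all those tested was called (0.00972%). The members with unadjusted p under 0.05 were Srebf2, with 0.46 ± 0.15 (95% interval 0.11 to 0.81, adjusted p = 0.30), and Sqle, with 0.36 ± 0.15 (0.02 to 0.71, adjusted p = 0.35). The interval for Hmgcs1 ran from -0.51 to 0.55 and that for Mvk from -0.43 to 0.48, so differences of that size in the LPS effect were not resolved. Without antibody replicate 2, the interaction of Pmvk was 0.80, against 0.50 ± 0.27 in the full fit. It was called there, and more genes were called over all genes as well.

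The antibody alone lowered 6 members and raised none, where 10.6% of all genes were called lower and 3.04% higher (13.7% in either direction). The median log2 difference was -0.21 for the members and -0.08 for all genes. Of these 6, 2 control SREBP2, namely Srebf2, with -0.72 ± 0.11 (limma adjusted p = 0.015), and Mbtps1, with -0.38 ± 0.10 (0.049). The others were Hsd17b7 with -0.62 ± 0.11 (0.019), Lbr with -0.54 ± 0.14 (0.044), Lss with -0.54 ± 0.14 (0.045) and Npc1 with -0.59 ± 0.12 (0.024). Hsd17b7 had 12.0 and 13.1 FPKM in untreated cells, 8.60 and 9.51 with LPS, 7.38 and 8.29 with the antibody and 6.65 and 7.22 with both. Its antibody libraries lay below the LPS libraries, and Npc1 was the member called lower with the antibody and not with LPS. Soat1 (-0.50 ± 0.14, adjusted p = 0.050) and Sqle (-0.36 ± 0.10, 0.059) did not pass the threshold. None of the 8 mevalonate and isoprenoid genes was called, at an unadjusted p under 0.05 as well, and their differences ran from -0.34 for Pmvk to 0.18 for Idi1.

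None of the 6 calls was kept in every fit with 1 library left out. Over these fits the difference ran from -0.78 to -0.65 for Srebf2, -0.42 to -0.35 for Mbtps1 and -0.69 to -0.54 for Hsd17b7. It ran from -0.71 to -0.38 for Lss, -0.71 to -0.38 for Lbr and -0.74 to -0.44 for Npc1. Calls over all genes fell as well without an untreated library, an LPS library or a library of both agents. Without an antibody library, calls rose among the members and over all genes. The lone antibody library is there assumed to vary like the other groups. In the antibody group, 13 members differed by more than 1.3 times between the replicates, against 2 in untreated cells, 0 with LPS and 1 with both. Replicate 2 was the higher in 11 of the 13, and these counts were not taken over all genes. Counted gene length moved with both measures: over the 30 members, Spearman's rho with length was -0.36 for the log2 ratio of antibody replicate 2 to 1 and -0.55 for the antibody difference, as a description, since the values share libraries. With the trend on length removed, 2 members were called, and with mitochondrial genes left out also 2, Srebf2 and Hsd17b7 in both cases. Of all genes, 7.48% and 8.19% were called in these 2 fits.

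In LPS-treated cells the antibody made no difference that passed the test. Of the 30 members, 0 were called between both agents and LPS alone by limma, 7 had an unadjusted p under 0.05 (2005 of 10289 over all genes), and 1.78% of all genes were called (1.42% lower and 0.36% higher). The median log2 difference was -0.12 for the members and -0.02 for all genes. The 7 were Mbtps2 with -0.51 ± 0.12 (adjusted p = 0.083), Soat1 with -0.48 ± 0.14 (0.12), Insig1 with -0.42 ± 0.14 (0.17), Lbr with -0.38 ± 0.14 (0.19), Hsd17b7 with -0.34 ± 0.11 (0.16), Npc1 with -0.30 ± 0.12 (0.24) and Srebf2 with -0.26 ± 0.11 (0.24). Leaving out antibody replicate 1 or 2 cannot change these differences, or the -0.45 of Stard4, because this comparison holds no antibody library. Only the estimate of the spread and the genes tested changed in those fits. More genes were called in those fits over all genes, members among them. A fit on only these 2 groups called 7 members and 22.4% of all genes. The enzymes that fell most with LPS had intervals around 0, from -0.24 to 0.25 for Sqle, -0.37 to 0.27 for Mvk and -0.40 to 0.35 for Nsdhl.

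**Figure D5:**
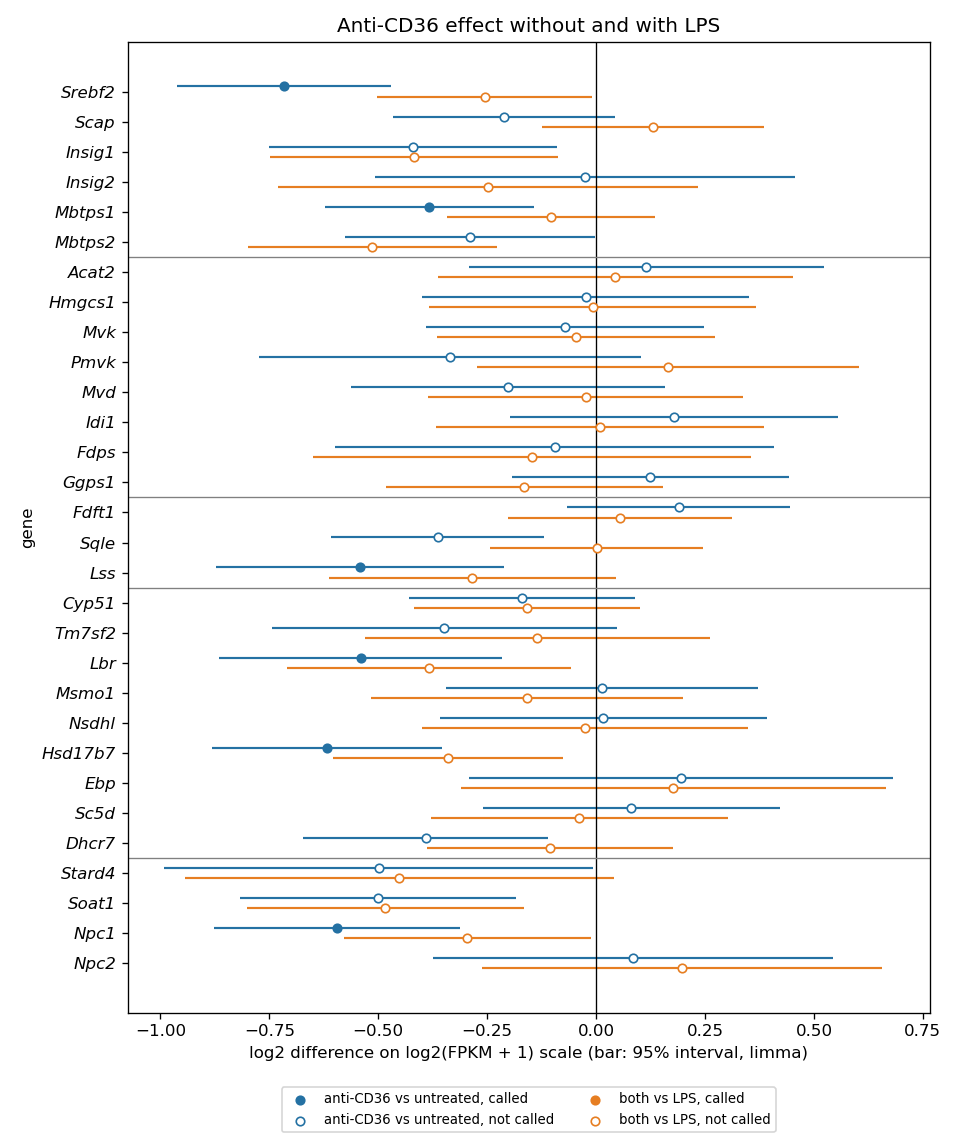
Log2 difference of each member with its 95% limma interval for the antibody against untreated cells and for both agents against LPS, on the log2(FPKM + 1) scale, with filled points for called members. Filled points stand at Srebf2, Mbtps1, Lss, Lbr, Hsd17b7 and Npc1 for the antibody alone, and no point is filled in LPS-treated cells.

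With both agents against untreated cells, 23 members were called lower and Npc2 higher. Over all genes, 41.8% were called lower and 17.3% higher (59.1% in either direction). The median difference was -0.84 against -0.23 for all genes. With size factors the split was 19 lower and 2 higher, where 28.5% of all genes were called lower and 28.7% higher. Msmo1 (-0.14, limma adjusted p = 0.38), Pmvk (-0.38, 0.082), Idi1 (-0.29, 0.16) and Fdps (-0.52, 0.058) were then not called. Ggps1 was then called higher (0.61, adjusted p = 0.0072). Quantile normalization gave 21 lower and 2 higher, against 30.4% and 24.9% of all genes. With the length trend removed, Msmo1 had -0.04. On the deposited scale, all 22 members called lower by LPS alone were among the 23, and Msmo1 was the other. The comparisons share the untreated libraries, and the same overlap was not counted over all genes. The mean of the group with both agents was the lowest of the 4 in 20 of the 30 members, and the order untreated, antibody, LPS, both was found in 15, among them Srebf2, Insig1, Mbtps1, Hmgcs1, Mvk, Mvd, Sqle, Lbr and Soat1. For many of these the neighbouring groups overlap, as given above, so the order of means is not a resolved order of levels. Neither count was taken over all genes. On the deposited scale the all-gene median differences from untreated cells ran in the same order, at -0.08 with the antibody, -0.19 with LPS and -0.23 with both. The call of Msmo1 needed every library outside the antibody group (limma adjusted p from 0.059 to 0.22 without one of them). Pmvk was not called without either untreated library (0.084 and 0.053) or either library of both agents (0.070 and 0.083), Idi1 without untreated replicate 2 (0.12) or replicate 1 of both (0.12), and Fdps without untreated replicate 1 (0.087) or replicate 2 of both (0.081).

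Related genes outside the route were read from 6 further lists, whose LPS counts stand against 17% of all genes called higher, 37.5% called lower and an all-gene median of -0.19. The list of SREBP1 and acetyl-CoA supply, the fatty acid side of SREBP action, had 11 of 12 tested genes lower with LPS, 0 higher and a median of -1.19. The fatty acid synthase Fasn had 62.6 and 66.5 FPKM in untreated cells, 12.6 and 12.8 with LPS, 42.3 and 31.5 with the antibody and 12.6 and 11.3 with both, with an LPS difference of -2.26 ± 0.15 (limma adjusted p = 2.8e-05). The stearoyl-CoA desaturases Scd2 and Scd1 also fell, with -2.17 ± 0.15 (3.8e-05) and -2.14 ± 0.16 (4.3e-05). With the antibody alone 6 of the 12 fell and none rose, where 10.6% of all genes were called lower. Between both agents and LPS, Scd2 was the 1 gene of the list called, at 59.3 and 61.6 against 98.5 and 120 FPKM (-0.84 ± 0.15, adjusted p = 0.046), while Scd1 had -0.74 ± 0.16 (0.064).

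Of 14 tested genes that use isoprenoids, 3 rose and 2 fell with LPS, with a median of -0.08. Rabggtb, a subunit of the enzyme that prenylates Rab proteins, rose by 1.15 ± 0.21 (limma adjusted p = 0.0032), and the farnesyltransferase subunit Fntb and the dolichol synthase subunit Dhdds each fell by 0.73 (0.0061 and 0.0031). The combination differed from LPS by -0.19 for Pggt1b and 0.19 for Rce1 (adjusted p = 0.56 and 0.68). Of 14 tested genes that degrade or regulate sterol enzymes and INSIG in the endoplasmic reticulum, 2 rose and 4 fell with LPS, with a median of -0.08. Rnf145, a sterol-responsive ubiquitin ligase, fell by 1.42 ± 0.11 (6.8e-05), Usp20, a deubiquitinase, fell by 0.66 ± 0.12 (0.0028), and Pgrmc1, a haem-binding partner of sterol enzymes, rose by 0.77 ± 0.19 (0.010). The combination differed from LPS by -0.25 for Usp20 and -0.18 for Ube2g2 (0.31 and 0.62).

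Sterol transfer and ester hydrolysis was mixed, with 5 of 15 tested genes higher and 7 lower with LPS and a median of 0.24. Gramd1a, which carries plasma membrane cholesterol to the endoplasmic reticulum, rose by 1.06 ± 0.11 (limma adjusted p = 0.00019). Lipa, the lysosomal ester hydrolase, fell by 1.06 ± 0.12 (0.00032), and Tmem97, a binding partner of NPC1, fell by 1.03 ± 0.13 (0.00052). The combination differed from LPS by -0.59 for Osbpl8 and -0.38 for Nceh1 (0.10 and 0.098).

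Of 7 tested genes of oxysterol synthesis and the sterol-sensing receptor LXR, 4 fell with LPS and 0 rose, with a median of -0.62. The exporter Abcg1 had 18.2 and 17.9 FPKM in untreated cells, 4.91 and 4.50 with LPS, 11.7 and 9.67 with the antibody and 2.82 and 2.61 with both. Its groups did not overlap, the LPS difference was -1.74 ± 0.12 (limma adjusted p = 3.2e-05), and the combination differed from LPS by -0.62 ± 0.12 (0.050, not called). The sterol 27-hydroxylase Cyp27a1 fell by 0.70 ± 0.13 (0.0032) with LPS, and Mylip, a ligase that degrades lipoprotein receptors, differed by -0.49 ± 0.12 (0.085) between the combination and LPS. Of 5 electron donors of sterol enzymes, 2 rose and 1 fell. Por, the reductase that feeds Cyp51 and Sqle, rose from 31.1 and 30.4 FPKM to 63.3 and 63.0 with LPS (1.01 ± 0.22, adjusted p = 0.0066), opposite to both of these enzymes. Cyb5r1 rose by 0.58 ± 0.15 (0.015), Cyb5r3 fell by 0.43 ± 0.13 (0.029), and the combination differed from LPS by -0.40 for Cyb5r1 and 0.26 for Cyb5a (0.21 and 0.51).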

How the data were processed

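RNA was measured by bulk RNA-seq in 8 RAW264.7 libraries, 2 in each of 4 groups taken from the labels. The authors deposited 1 table of FPKM values by gene symbol; the submitters' processing notes list the aligner HISAT2 2.0.5 with mm10 and, for a purpose not given, hg38. The counter, annotation, strand use and treatment of multiply mapped reads are not given in the sources used here. No library column was left unused, and no gene of the table was at 0 in any library. Of the members, 12 share exon bases with another gene, 4 of them with one on the same strand, and such values are uncertain.

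FPKM values are not counts. They were tested with limma 3.58.1 (R 4.3.3) on log2(FPKM + 1), for the 10289 genes that reached an FPKM of 1 in 2 or more libraries. A model of 4 group means was fitted to all 8 libraries (4 residual and 3.46 prior degrees of freedom, trend on mean expression), with Benjamini-Hochberg adjustment over all genes tested. The added 1 makes the reported differences of low genes too small. Standard errors and 95% intervals are limma's. The script was tested on simulated data.

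Whole-read steps in 134 genes shorter than 400 bp gave each library's depth, with 129 to 130 of them whole within 0.02. At these depths 3 reads correspond to 0.0209 to 0.0313 FPKM for a 2000 bp gene, counting error only. Counted length was found for 10638 genes. It equalled the GENCODE M21 exon length for 29 of the 30 members, whose coordinates (mm10) come from GENCODE M21.

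The members and the other lists were chosen with earlier results of these data known. All members are described by step. Values in every library are given for up to 4 members a step with the largest differences, for Srebf2, Scap, Insig1 and Insig2, and for members against their step's direction. From each other list come the 3 genes with the largest LPS difference and the 2 with the largest difference between both agents and LPS. Some genes that this rule takes are not reported here. Values of Hsd17b7 by library, and of Stard4, Ebp and others by call, were added after their values were seen. Alternatives were quantile normalization, median-ratio size factors, pseudocounts of 0.1 and 5, a filter on mean FPKM of 5 or none, mitochondrial genes left out, a length trend removed, no variance trend, a replicate block, only the groups compared, an absolute difference of at least 1, and leaving out each library.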

Additional observations from a re-analysis of the deposited data

How the results depend on the processing

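With LPS, 17 of the 24 called members were called under every alternative in which they were tested, with both agents against untreated cells 19 of 24, with both against the antibody 12 of 21 and with the antibody alone 0 of 6. No member's called difference changed sign. For the antibody against untreated cells the 6 calls became 3 with quantile normalization, 2 with size factors, 2 without mitochondrial genes, 2 with the length trend removed and 0 in a fit on only those groups, and 0 to 10 when a library was left out. Of all genes, 13.7% were called as reported above, 10.7% with quantile normalization and 9.85% with size factors. The share was 8.19% without mitochondrial genes, 7.48% with the length trend removed and 0% in the fit on only those groups. With a library left out, calls over all genes moved the same way as those of the members. The loss of calls was therefore not particular to the members. Requiring an absolute difference of at least 1 left 8 with LPS, 0 with the antibody, 14 with both against untreated cells and 6 with both against the antibody. Of all 10289 genes it left 1712, 61, 1976 and 1391 in these comparisons. A fit on only the groups compared gave 13 with both against the antibody and 7 with both against LPS, where leaving out a library gave 0 to 5. For the interaction, leaving out antibody replicate 2 brought the call of Pmvk, and more genes were then called over all genes as well. The cause of these changes was not tested. The replicate block gave 22 calls with LPS (51.5%), 3 for the antibody against untreated cells (8.39%) and 0 for both against LPS (0.447%). The labels do not tell whether the replicate numbers pair the libraries. The correlation of replicate differences between groups, taken over genes, ran from -0.65 (untreated and antibody) to 0.53 (untreated and both). With 1 replicate difference in each group, these values cannot decide it. Each member had at least 250 reads in every library, and each group had 2 libraries.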
